A study of Homo sapiens with 4 samples.

Results

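Subtelomeric peaks of H3K4bhb were defined as peaks of chromosomes 1 to 22 whose summit lay within 5 Mb of a chromosome end. The short-arm ends of chromosomes 13, 14, 15, 21 and 22 were left out. The rule used position alone. It chose 552 of 11510 peaks in HK-2 cells given hydrogen peroxide (H2O2) after pretreatment with sodium beta-hydroxybutyrate (BHBNa), and 199 of 6251 peaks in HK-2 cells given H2O2 alone. HK-2 is an established cell line from human proximal tubule, immortalised with genes of a human papillomavirus. H3K4bhb is beta-hydroxybutyrylation of lysine 4 of histone H3, mapped here by ChIP-seq, which sequences the DNA pulled down with an antibody to the mark. A treatment had 1 library from the immunoprecipitation (IP) and 1 from a control, which the titles call IgG and the library names call Input. Both treatments carried H2O2, and cells without H2O2 were not analysed here. The sources used here do not give doses or times. With 1 IP library per treatment no difference between the treatments has a replicate check, and all intervals are 95% intervals that cover counting error only.

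Telomeres cap chromosomes with short repeats, and the sequence next to them, the subtelomere, holds duplicated blocks shared between chromosome ends. Farther in, the terminal megabases of human chromosomes are often rich in genes and in G and C bases. Beta-hydroxybutyrate, a ketone body made in fasting, can be joined to lysines of histones through its coenzyme A form, and in the liver of fasted mice such a mark on another lysine of H3 was found at promoters of active genes. The regions next to telomeres carry long synaptic and adhesion genes on some ends and dense clusters of short genes on others.

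Of the subtelomeric peaks, 3 in the H2O2 + BHBNa list and 0 in the H2O2 list overlapped a promoter window, taken as 250 bases before to 50 bases after a gene's start. The exact interval of 0 of 199 reaches up to 1.84%. Over chromosomes 1 to 22, 0.344% of H2O2 + BHBNa peaks and 0.187% of H2O2 peaks did so. These 3 promoters are shown because a subtelomeric peak reached into their window. The GPR146 peak did not reach the start used for its window, with its summit 438 bases before that start. This start lies inside the annotated gene (chr7:1044546-1059261), so the summit was within GPR146, and also within CHLSN (chr7:977964-1138257), not upstream of the gene. Sequences are from RefSeq on GRCh38.p14, read 5′ to 3′ on the gene's strand, with the bases inside the peak in capitals.
LOC105373389 (chr2:2484141-2484440, plus strand): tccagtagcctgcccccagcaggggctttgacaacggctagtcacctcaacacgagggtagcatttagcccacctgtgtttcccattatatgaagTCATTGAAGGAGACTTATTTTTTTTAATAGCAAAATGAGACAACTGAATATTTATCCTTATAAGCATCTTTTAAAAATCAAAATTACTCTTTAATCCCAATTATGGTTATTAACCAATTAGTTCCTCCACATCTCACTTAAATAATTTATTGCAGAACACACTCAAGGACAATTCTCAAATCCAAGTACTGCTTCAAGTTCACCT
LOC124901145 (chr5:176982413-176982712, minus strand): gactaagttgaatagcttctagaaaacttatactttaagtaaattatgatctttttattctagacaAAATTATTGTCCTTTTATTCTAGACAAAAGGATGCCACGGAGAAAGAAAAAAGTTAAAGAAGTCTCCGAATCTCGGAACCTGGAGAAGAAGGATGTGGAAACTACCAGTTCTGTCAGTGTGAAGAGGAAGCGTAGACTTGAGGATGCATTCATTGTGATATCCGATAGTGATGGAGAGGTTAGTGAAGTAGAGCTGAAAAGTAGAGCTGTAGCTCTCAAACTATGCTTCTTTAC
GPR146 (chr7:1055120-1055419, plus strand): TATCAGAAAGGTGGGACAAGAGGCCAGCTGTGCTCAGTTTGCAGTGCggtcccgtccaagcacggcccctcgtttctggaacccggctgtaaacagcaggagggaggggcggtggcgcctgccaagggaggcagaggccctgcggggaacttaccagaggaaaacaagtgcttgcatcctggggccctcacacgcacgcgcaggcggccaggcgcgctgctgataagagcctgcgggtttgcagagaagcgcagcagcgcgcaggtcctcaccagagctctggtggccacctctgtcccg
The long noncoding RNA genes LOC105373389 and LOC124901145 had promoters of 37.0% G and C, with 2 and 5 CpG dinucleotides. The promoter of GPR146, a G protein-coupled receptor, had 64.7% G and C and 19 CpGs. The median over 4183 promoters at the chromosome ends was 64.7% (interquartile range 55.3 to 72.7) with 19 CpGs. The median over promoters of the rest of chromosomes 1 to 22 was 57.7% (46.0 to 67.3) with 13. Of the overlapped promoters, those of LOC105373389 and LOC124901145 were thus below the interquartile range of promoters at the ends, and that of GPR146 was at its middle. The peak at LOC105373389 covered 205 promoter bases, with its summit 99 bases past the start, a fold enrichment of 3.46 (q = 0.0972, 3 IP fragments). The peak at LOC124901145 covered 234 bases and that at GPR146 covered 47, each resting on 2 IP fragments (q = 0.326). The summit at LOC124901145 also lay inside the protein-coding gene UIMC1 (chr5:176905005-177022602), so this peak is not specific to the noncoding promoter.

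The depth behind these values was low and differed between the treatments. The authors deposited for each peak a fold enrichment, a −log10 p and a −log10 q. The IP fragments at each summit (the pileup) and the control background under it were worked out from its fold and p together, and a whole-number pileup was found for 100% of the subtelomeric peaks. The genome-wide background level, which scales with IP depth, was 0.102 fragments with H2O2 + BHBNa and 0.274 with H2O2. The fewest fragments in a peak were 2 in the H2O2 + BHBNa list and 3 in the H2O2 list. A peak list carries no expression, so the cell type could not be checked from markers.

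Chromosome ends carried fewer H3K4bhb peaks per Mb than the rest of the genome in both lists. In the H2O2 + BHBNa list the 39 ends, 195 Mb in all, held 2.83 peaks per Mb (2.60 to 3.08), against 3.81 per Mb (3.74 to 3.88) in the rest of chromosomes 1 to 22. The H2O2 list had 1.02 per Mb (0.884 to 1.17), at the ends, against 2.12 (2.06 to 2.18) in the rest. The ratio of end to interior density was 0.743 (0.681 to 0.810) in the H2O2 + BHBNa list and 0.481 (0.416 to 0.555) in the H2O2 list. Chromosome ends made up 6.78% of the sequence considered. They held 5.13% (4.72 to 5.56) of the H2O2 + BHBNa peaks of chromosomes 1 to 22 and 3.38% (2.94 to 3.88) of the H2O2 peaks. The H2O2 + BHBNa list had 2.77 times as many peaks as the H2O2 list at the ends and 1.80 times as many elsewhere.

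Part of this gap between the lists lay in peaks of 2 fragments, which the H2O2 list does not hold. Among peaks of at least 3 fragments, 4.11% (3.58 to 4.68) of those in the H2O2 + BHBNa list and 3.38% (2.94 to 3.88) of those in the H2O2 list were at chromosome ends, and the intervals overlap, which does not show that the shares are alike. With that limit the density ratio of the H2O2 + BHBNa list was 0.589 (0.511 to 0.675), below 1 as in the H2O2 list. When the H2O2 + BHBNa list was instead cut to the length of the H2O2 list by its −log10 p, a choice made after seeing the data, 5.83% (5.25 to 6.46) of its peaks were at ends. This cut did not remove peaks of 2 fragments, since it kept 5879 peaks and only 5186 of the list had at least 3. Ranking by p favours those on a low background, and 34.6% of subtelomeric peaks stood on the genome-wide level, against 15.9% elsewhere. The share was higher in the H2O2 + BHBNa list in each of these settings, by differing amounts, but the second is not a check free of 2-fragment peaks. Neither setting makes the depths equal, and the part of depth in the difference was not tested.

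Peak density climbed with distance from the end in the H2O2 + BHBNa list. It was 1.92 per Mb (1.51 to 2.41) in the first Mb, 2.26 in the second, 2.46 in the third, 3.64 in the fourth and 3.87 (3.28 to 4.54) in the fifth. Beyond the 5 Mb limit it was 3.66 per Mb at 5 to 10 Mb and 4.03 at 15 to 20 Mb. The same bins of the H2O2 list ran 0.821 (0.561 to 1.16), 0.974, 1.31, 0.692 and 1.31 (0.974 to 1.72) per Mb, with no steady order. That list reached 1.70 per Mb (1.52 to 1.89) at 5 to 10 Mb and 2.07 (1.87 to 2.28) at 15 to 20 Mb. Protein-coding genes ran the other way, from 19.5 per Mb in the first Mb to 9.41 in the fifth and 7.30 at 15 to 20 Mb. Of the peaks in the first Mb, 17 of 75 in the H2O2 + BHBNa list and 6 of 32 in the H2O2 list passed q ≤ 0.05, the limit passed by 15.1% and 7.08% of all peaks on chromosomes 1 to 22. The next 4 bins had no steady order in this share, with 16 of 88, 11 of 96, 25 of 142 and 19 of 151 in the H2O2 + BHBNa list and 0 of 38, 3 of 51, 0 of 27 and 2 of 51 in the H2O2 list.

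**Figure D1:**
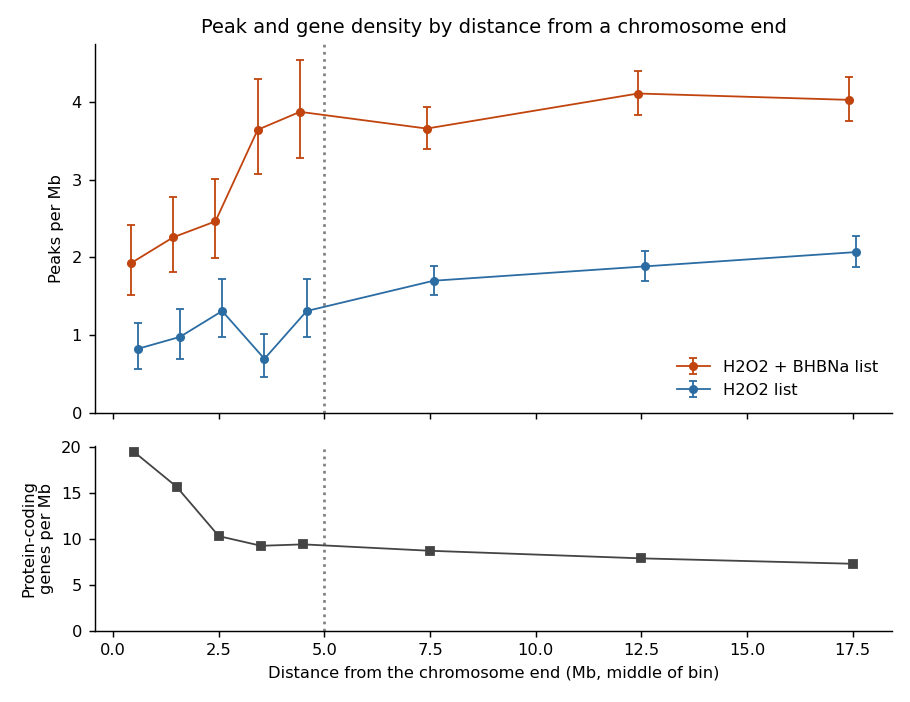
Peaks per Mb in each list (upper panel, points with 95% exact Poisson intervals) and protein-coding genes per Mb (lower panel) against distance from a chromosome end, with the 5 Mb limit dotted. Peak density is lowest in the first Mb of the H2O2 + BHBNa list, at 1.92 per Mb, where gene density is highest, at 19.5 per Mb.

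The ends differed widely among themselves. In the H2O2 + BHBNa list an end held between 4 and 25 peaks, with a median of 13, and in the H2O2 list between 0 and 18, with a median of 4. All 39 ends held more peaks in the H2O2 + BHBNa list than in the H2O2 list, but this counts peaks of 2 fragments, which only the H2O2 + BHBNa list holds. Among peaks of at least 3 fragments, a comparison added after seeing the data, 23 ends held more in the H2O2 + BHBNa list, 15 held fewer and 1 was equal. At 18p the counts were then 9 with H2O2 + BHBNa and 18 with H2O2, at 11q 4 and 12, and at 3p 14 and 14. The highest counts of the H2O2 + BHBNa list were 25 at 6p and 24 each at 3p and 18p, where the H2O2 list had 7, 14 and 18. For the H2O2 list 18p was highest, followed by 3p and 4q with 14 each. The lowest counts of the H2O2 + BHBNa list were 4 at 19p, 4 at 21q and 5 each at 5q and 20q, where the H2O2 list had 0, 2, 4 and 4. The H2O2 list had 0 peaks at 19p, the end with the most protein-coding genes, 202.

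**Figure D2:**
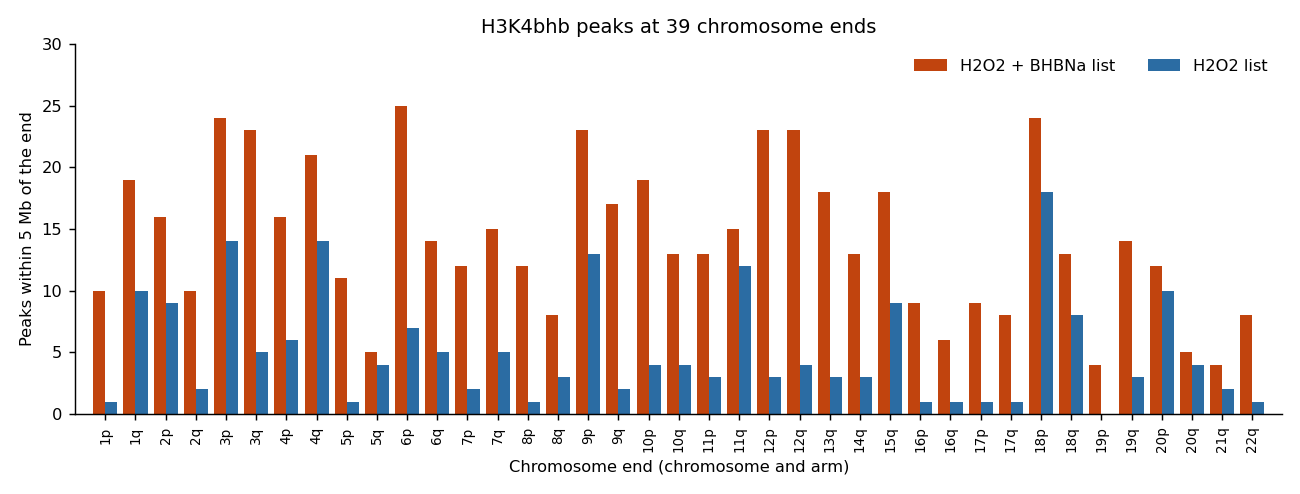
Number of peaks within 5 Mb of each of 39 chromosome ends, with H2O2 + BHBNa bars left of H2O2 bars. Counts run from 4 to 25 in the H2O2 + BHBNa list and from 0 to 18 in the H2O2 list.

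An end lay below the interior of its own chromosome in peak density at 27 of 39 ends in the H2O2 + BHBNa list and at 31 of 39 in the H2O2 list. The 17 short-arm ends held 3.08 and the 22 long-arm ends 2.64 peaks per Mb in the H2O2 + BHBNa list. The H2O2 values were 1.11 and 0.955 per Mb. Across the 39 ends the peak counts of the lists had a Pearson correlation of 0.63 and a Spearman correlation of 0.69, given as a description, since the points of each list come from 1 library. With the number of protein-coding genes at the end, the Spearman correlation was -0.56 in the H2O2 + BHBNa list and -0.58 in the H2O2 list (Pearson -0.51 and -0.50). The gene-rich end 16p, with 197 genes, had 9 and 1 peaks in the H2O2 + BHBNa and H2O2 lists, while 3p, with 13 genes, had 24 and 14. The end 8p, with 16 genes, held 12 peaks in the H2O2 + BHBNa list and 1 in the H2O2 list, which went against this pattern for H2O2. At 19q, with 182 genes, the H2O2 + BHBNa list held 14 peaks and the H2O2 list 3.

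**Figure D3:**
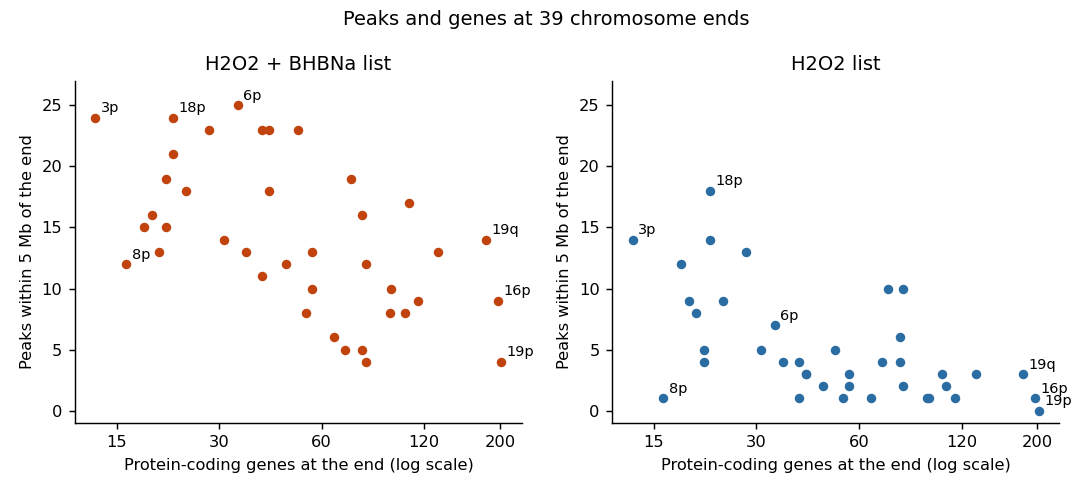
Peaks at each of 39 chromosome ends against its number of protein-coding genes (log scale), with the H2O2 + BHBNa list left and the H2O2 list right. Ends with many genes, such as 16p and 19p with 197 and 202, lie low in both panels.

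Subtelomeric peaks rested on few fragments. In the H2O2 + BHBNa list 339 of 552 subtelomeric peaks, 61.4% (57.2 to 65.5), had exactly 2 fragments, against 51.3% (50.3 to 52.3) of peaks elsewhere on chromosomes 1 to 22. At least 3 fragments were found at 213 of the 552, where all peaks of chromosomes 1 to 22 gave 48.2%. The H2O2 list had at least 3 at 100.0% of peaks, and 66 of its 199 subtelomeric peaks, 33.2%, had exactly 3, against 20.7% elsewhere. The highest pileup was 9 in both lists at the ends. Elsewhere it reached 294 in the H2O2 + BHBNa list and 528 in the H2O2 list. The highest control background elsewhere was 46.2 and 56.4 fragments, against 0.874 and 2.35 at the ends. A high pileup elsewhere is thus not by itself a high enrichment.

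**Figure D4:**
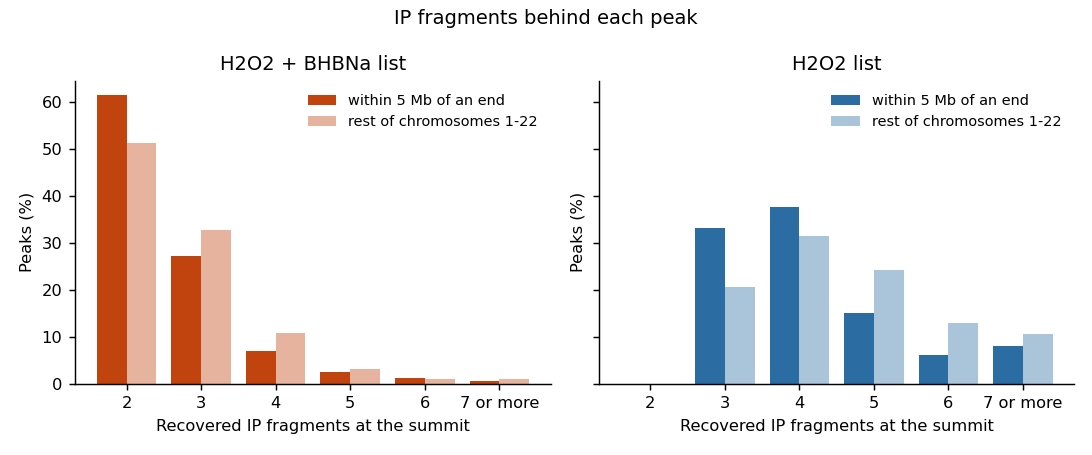
Share of peaks (%) by the number of recovered IP fragments at the summit, for peaks within 5 Mb of an end (dark) and in the rest of chromosomes 1 to 22 (light), with the H2O2 + BHBNa list left. Peaks of 2 fragments make up 61.4% of the subtelomeric peaks of the H2O2 + BHBNa list.

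The control background was also lower under subtelomeric peaks. With H2O2 + BHBNa its median was 0.128 fragments at subtelomeric peaks, against 0.155 elsewhere. With H2O2 it was 0.401, against 0.500 elsewhere. It stood at the genome-wide level under 34.6% (30.6 to 38.7) of subtelomeric peaks in the H2O2 + BHBNa list, against 15.9% elsewhere. The H2O2 shares were 19.1% (13.9 to 25.3) at the ends and 6.71% elsewhere. A peak of 2 fragments was called in the H2O2 + BHBNa list at backgrounds up to 0.190 only, and a peak of 3 fragments in the H2O2 list up to 0.428 only. Background and fragment number thus moved together with position at the ends, and the part of this in the counts was not tested.

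Median fold enrichment differed little between ends and interior. It was 2.72 at subtelomeric peaks of the H2O2 + BHBNa list and 2.72 elsewhere, the value of 2 fragments on the genome-wide background. Peaks of 2 fragments were the majority in both parts and reach at most that fold, so equal medians do not show like enrichment. The highest folds, from far more peaks elsewhere, were 9.07 at the ends and 18.5 elsewhere with H2O2 + BHBNa, and 5.12 and 11.9 with H2O2. For the H2O2 list the median was 3.41 at the ends and 3.51 elsewhere. Of the 552 subtelomeric peaks in the H2O2 + BHBNa list, 88 passed q ≤ 0.05, 15.9% (12.99 to 19.3), against 15.1% over chromosomes 1 to 22. Of the 199 in the H2O2 list 11 passed, 5.53% (2.79 to 9.68), against 7.08% over chromosomes 1 to 22. Both shares were near those of the whole lists. Subtelomeric peaks had a median width of 327 bp in the H2O2 + BHBNa list and 305 bp in the H2O2 list.

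The strongest subtelomeric peak of the H2O2 + BHBNa list lay at the very end of 5p, at chr5:10177-10582, with 9 fragments and a fold of 9.07 (q = 1.08e-11). No protein-coding gene lay within 1 kb of it, and the H2O2 list held no overlapping peak. The sequence under this 5p peak was not available here, so its repeat content and how uniquely reads map there were not checked. The next was in DIP2C on 10p (chr10:655756-656506), with a fold of 6.71 (q = 1.9e-05). An intergenic peak on 9p (chr9:3172768-3173042) had a fold of 6.37. Peaks in SHC2, an adaptor of receptor tyrosine kinases on 19p (chr19:426345-426651), in CHLSN, which encodes cholesin, on 7p (chr7:1118418-1118822) and in PTPRN2, a phosphatase-like protein of secretory vesicles on 7q (chr7:157994323-157994755), all rested on 6 fragments, at a fold of 6.35 (q = 3.84e-06). Of these, SHC2 and CHLSN lay 0.426 and 1.12 Mb from the end. Intergenic peaks on 3q (chr3:197388546-197388895) and 11p (chr11:4379284-4379699) followed, with folds of 6.07 and 5.67.

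The strongest subtelomeric peaks of the H2O2 list had folds up to 5.12. Folds are not on an equal footing between the lists, because 5 fragments give at most 5.44 with H2O2 + BHBNa and 4.71 with H2O2. The highest was intergenic on 20p (chr20:72927-73181), with 8 fragments and a fold of 5.12 (q = 0.0121). Intergenic peaks followed on 1q (chr1:248123204-248123685) with a fold of 5.08, and on 3q (chr3:197384424-197384752) with 4.84. The 3q peak stood 3.92 kb from the 3q peak of the H2O2 + BHBNa list without touching it. DOCK8 on 9p (chr9:277013-277498) held the highest peak inside a protein-coding gene, with 5 fragments and a fold of 4.71 (q = 0.035). The same fold was found at peaks outside protein-coding genes on 18p (chr18:108474-108924), in the noncoding gene LOC112268408, and on 4q (chr4:188155585-188156085). Peaks on 7q (chr7:155048772-155049028) and 12q (chr12:130894247-130894620) had folds of 4.66 and 4.64. Of the 8 highest peaks per list, 4 with H2O2 + BHBNa and 7 with H2O2 thus lay outside protein-coding genes.

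The peaks nearest to a telomere in the H2O2 + BHBNa list were the 5p peak and peaks in PGBD2 on 1q, on 16p and on 20p. They lay 10.5, 20.8, 37.7 and 67.7 kb from the end, where the 1q distance rests on a chromosome length rounded to 0.1 Mb, so that the place of PGBD2 in this order is not settled. PGBD2, a gene derived from a transposase, had a fold of 4.12 (q = 0.0387), and the 16p peak a fold of 2.72 from 2 fragments. The nearest of the H2O2 list lay on 20p at 73.0 kb, on 18p at 109 kb, in ZNF718 on 4p at 185 kb and on 20p at 246 kb. The 20p peaks nearest to the end in the lists were 5.26 kb apart and did not overlap.

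Only 6 subtelomeric peaks were held by both lists at 1 bp or more of overlap. They made up 1.09% (0.400 to 2.35) of the subtelomeric peaks of the H2O2 + BHBNa list and 3.02% (1.11 to 6.45) of those of the H2O2 list. Over chromosomes 1 to 22 the overlap was 0.632% and 1.17%, and both intervals include that background. The 6 lay in DIP2C, CDYL and RCOR1, in a noncoding gene on 18p, and between genes on 1q and 4q. At DIP2C the fold was 6.71 from 9 fragments in the H2O2 + BHBNa list and 2.95 from 6 in the H2O2 list. At CDYL on 6p, which encodes a chromodomain protein that lowers histone crotonylation, the fold was 3.73 from 4 fragments in the H2O2 + BHBNa list and 3.65 from 6 in the H2O2 list, with summits 51 bp apart. RCOR1 on 14q, a corepressor that holds a histone demethylase and deacetylases, had folds of 3.07 and 2.85 from 3 fragments in each list, with an overlap of 22 bp.

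The 18p pair (chr18:107977-108587 in the H2O2 + BHBNa list and chr18:108474-108924 in the H2O2 list) lay in the noncoding gene LOC112268408, about 108 kb from the end. Its folds were 3.48 in the H2O2 + BHBNa list and 4.71 in the H2O2 list, on control backgrounds of 1.46 and 1.00 times the genome-wide level. A further H2O2 + BHBNa summit, with a fold of 3.63, stood 1.34 kb from the H2O2 summit. The intergenic pair on 1q had folds of 3.03 and 3.18, and that on 4q 3.42 and 3.003. None of the 6 passed q ≤ 0.05 in both lists. Under DIP2C, CDYL and the 1q pair the background was 3.13 to 4.80 times the genome-wide level with H2O2 + BHBNa and 3.35 to 5.02 times with H2O2, and its part in the overlap was not tested. At a looser distance, 26 H2O2 + BHBNa summits, 4.71%, lay within 10 kb of an H2O2 summit, where chromosomes 1 to 22 gave 5.6%. From the H2O2 side 21 of 199, 10.6%, lay within 10 kb, where chromosomes 1 to 22 gave 9.95%.

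Chromosome ends are dense in short genes. They held 12.9 protein-coding genes per Mb, against 6.20 per Mb elsewhere, with median lengths of 15.5 and 26.4 kb. Summits inside protein-coding genes numbered 275 of 552, 49.8% (45.6 to 54.1), in the H2O2 + BHBNa list and 91 of 199, 45.7% (38.7 to 52.9), in the H2O2 list. Over chromosomes 1 to 22 the shares were 42.5% and 38.2%. Protein-coding genes covered 51.5% of the end sequence and 41.4% of the rest. At the ends the intervals of both lists include the share of sequence. In the rest the share of summits was 42.1% (41.1 to 43.1) with H2O2 + BHBNa, near that of sequence. With H2O2 it was 37.9% (36.6 to 39.2), below it. A further 64 and 27 summits of the H2O2 + BHBNa and H2O2 lists lay in long noncoding RNA genes only, 11.6% and 13.6%, against 13.7% and 15.5% in the rest of chromosomes 1 to 22.

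Of 2513 protein-coding genes at the ends, 212 (8.44%) contained an H2O2 + BHBNa summit or had one within 1 kb, and 74 (2.94%) an H2O2 summit. Over all protein-coding genes of chromosomes 1 to 22 the shares were 15.5% and 7.99%. Of the genes with a peak, 35 had one in both lists, 16.5% of the genes of the H2O2 + BHBNa list and 47.3% of those of the H2O2 list. The same overlap was not worked out for all genes of chromosomes 1 to 22. These shares therefore do not show whether the lists share genes more often at the ends than elsewhere. Genes with a peak were long: the median length was 89.9 kb for genes with a subtelomeric peak in the H2O2 + BHBNa list and 143 kb in the H2O2 list. The part of length in the overlap was not tested.

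Summits near gene ends were few in number. No farther than 1 kb from the start or finish of an annotated protein-coding gene lay 20 of 552 subtelomeric summits, 3.62% (2.23 to 5.54), in the H2O2 + BHBNa list and 5 of 199, 2.51% (0.821 to 5.77), in the H2O2 list. Over chromosomes 1 to 22 the shares were 1.29% and 0.765%. The sequence within 1 kb of a gene end made up 4.55% of the chromosome ends and 2.26% of the rest. Both subtelomeric intervals include that 4.55%, but they are wide, the H2O2 one resting on 5 summits. In the rest the shares were 1.17% (0.967 to 1.39) with H2O2 + BHBNa and 0.704% (0.504 to 0.958) with H2O2. Both of these lay below the 2.26% of sequence. Summits within 1 kb of a gene start, over all genes with a promoter entry, numbered 9 and 2 in the H2O2 + BHBNa and H2O2 lists, where chromosomes 1 to 22 gave 1.2% and 0.697%. The summits near either end of a protein-coding gene stood, with H2O2 + BHBNa, at the finish of transcription for 12 genes and at the start for 3, and for 7 genes, ADAMTS15, DPRX and DIRAS1 among them, the side was not determined. With H2O2 it was the finish for 1 gene, the start for 1 and not determined for 3.

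By fold, the leading peaks near gene ends with H2O2 + BHBNa were at ADAMTS15, a secreted metalloproteinase on 11q (chr11:130447847-130448225), and at DPRX, a homeobox gene on 19q (chr19:53600140-53600484). Both rested on 5 fragments at a fold of 5.44 (q = 0.000148). DIRAS1, a small GTPase on 19p, and RNF212, a gene of meiotic recombination on 4p, followed with 3 fragments each at a fold of 3.63 (q = 0.0484). Among H2O2 peaks KRTAP10-5, a keratin-associated protein gene on 21q, had a fold of 3.72, PTK2, the focal adhesion kinase gene on 8q, 3.43, LOC124905408 on 4p 3.38, at the ZNF718 peak named above, and MRGBP, a subunit gene of a histone acetyltransferase complex on 20q, 3.14. Their q values ran from 0.245 to 0.494. The DPRX peak was also the H2O2 + BHBNa peak just inside the 5 Mb limit, and the one just outside, on 15q, had a fold of 5.13. For the H2O2 list the peaks just inside and just outside had folds of 3.14 and 3.64.

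Long genes near the ends gathered several peaks. CSMD1 on 8p (chr8:2935361-4994914), a large membrane protein with complement control domains, held 11 peaks in the H2O2 + BHBNa list and 0 in the H2O2 list. Its 11 peaks amount to 5.34 per Mb of the gene, a density that follows in part from naming genes by their peak count. Their folds ran from 2.56 to 4.46, 5 of them rested on at least 3 fragments, and 1 passed q ≤ 0.05 (q = 0.00453). They made up most of the 12 peaks at 8p, where the H2O2 list had 1. Farther in on 8p, at 5 to 10 Mb, the H2O2 + BHBNa list had 7 peaks and the H2O2 list 3.

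OPCML on 11q (chr11:132414981-133532501), an adhesion molecule of the IgLON family, held 6 peaks in the H2O2 + BHBNa list and 7 in the H2O2 list. That is 5.37 and 6.26 peaks per Mb of the gene, which was named by the same count. Of these peaks, 1 in the H2O2 + BHBNa list and 7 in the H2O2 list had at least 3 fragments, none passed q ≤ 0.05, and none overlapped between the lists. The highest folds were 3.24 in the H2O2 + BHBNa list and 3.92 in the H2O2 list.

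**Figure D5:**
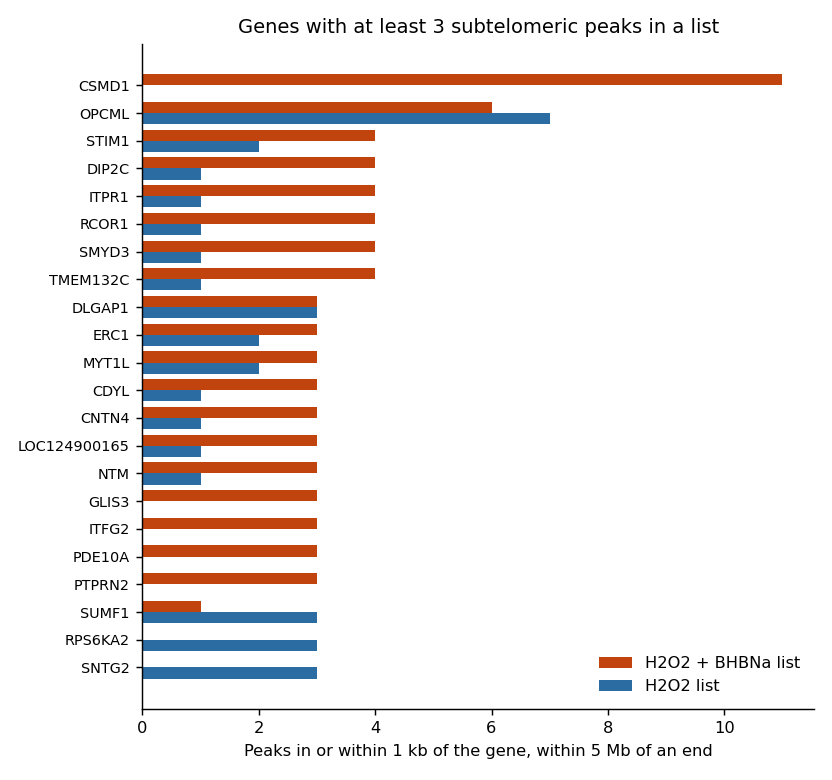
Subtelomeric peaks in or within 1 kb of each protein-coding gene that has at least 3 in a list, with the H2O2 + BHBNa bar above the H2O2 bar. CSMD1 has 11 and 0 peaks and OPCML 6 and 7 in the H2O2 + BHBNa and H2O2 lists.

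DIP2C, STIM1, SMYD3 and TMEM132C had 4 peaks each in the H2O2 + BHBNa list, as had RCOR1 and ITPR1. DIP2C on 10p (chr10:274201-689668) had 3 of its H2O2 + BHBNa peaks within 11.7 kb, and 1 peak in the H2O2 list. STIM1 on 11p, the calcium sensor of the endoplasmic reticulum, had 4 peaks in the H2O2 + BHBNa list with a highest fold of 4.55, and 2 in the H2O2 list with a highest fold of 3.92. SMYD3 on 1q, a lysine methyltransferase, had 4 peaks of at least 3 fragments in the H2O2 + BHBNa list, with a highest fold of 4.27 (q = 0.0168), and 1 peak in the H2O2 list with a fold of 3.07. TMEM132C on 12q had 4 and 1, with highest folds of 3.53 and 3.11. The genes that in the H2O2 list followed OPCML had 3 peaks each. DLGAP1 on 18p, a postsynaptic scaffold, had 3 in the H2O2 + BHBNa list too. SUMF1 on 3p, which activates sulfatases, had 1 there, and RPS6KA2, a ribosomal S6 kinase on 6q, and SNTG2, a syntrophin on 2p, had 0. Their highest folds in the H2O2 list were 4.31 for DLGAP1, 4.05 for RPS6KA2, 3.81 for SNTG2 and 2.96 for SUMF1.

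A few subtelomeric peaks stood close together. On 12p, 3 H2O2 + BHBNa summits lay within 31.7 kb across ITFG2, NRIP2, TEX52 and FOXM1, a transcription factor of cell division, and each rested on 2 fragments. A further 3 lay within 25.4 kb around TIGAR, an enzyme that lowers glycolytic flux, and FGF23, a hormone of phosphate balance, with a highest fold of 3.35. On 14q, 3 lay within 28.8 kb in RCOR1. These groups were chosen after their values were seen. The H2O2 list had no group of 3 summits within 50 kb at any end. Another peak of the same list lay within 10 kb of 50 of 552 H2O2 + BHBNa peaks, 9.06%, and of 10 of 199 H2O2 peaks, 5.03%. Elsewhere on chromosomes 1 to 22 the shares were 9.83% and 6.90%, so such neighbours were no more frequent at the ends.

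Cell adhesion and synaptic genes were put on a list with earlier results of these data known, and the list holds several of the genes with most peaks, so its count is a description only. Of 19 members at chromosome ends, 13 carried an H2O2 + BHBNa peak and 7 an H2O2 peak, 6 of them both, beside 8.44% and 2.94% of all genes at the ends. The median length of these members was 576 kb, against 15.5 kb for all genes at the ends, and the part of length in these counts was not tested. PTPRN2 at a fold of 6.35, CDH4, a cadherin on 20q, at 4.54, CNTN4, a contactin on 3p, at 4.51, and CSMD1 at 4.46 were the highest, with q values of 3.84e-06 to 0.00453 with H2O2 + BHBNa. CNTN4 had 1 H2O2 peak, at a fold of 3.10, and PTPRN2 and CDH4 had none.

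The counts of the lists that follow stand beside 8.44% of all genes at the ends with an H2O2 + BHBNa peak and 2.94% with an H2O2 peak. Genes of mitochondrial energy metabolism had an H2O2 + BHBNa peak at 1 of 15 members at the ends and an H2O2 peak at 0. The 1 was NDUFS6, a complex I subunit on 5p (peak at chr5:1803623-1803967), with 3 fragments and a fold of 3.63 (q = 0.0484). Of the 6 genes of ketone body and fatty acid use at the ends, BDH1 among them, 0 had a peak in either list. Mitochondrial biogenesis and quality control had 2 of 6 in the H2O2 + BHBNa list and 0 in the H2O2 list. OPA1, the fusion GTPase of the inner membrane, had a fold of 3.04 from 3 fragments, and SIRT3, a mitochondrial deacylase on 11p, a fold of 2.72 from 2. Both had a q of 0.326.

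Lysine acylation and histone-modifying enzymes had 5 of 15 members in the H2O2 + BHBNa list and 3 in the H2O2 list, beside 8.44% and 2.94% of all genes at the ends. Their median length at the ends was 111 kb. Beside SMYD3, the H2O2 + BHBNa list held PRDM16 on 1p at a fold of 3.63, and EHMT1, NSD2 and SIRT3 at 2.72 from 2 fragments each. The H2O2 list held CREBBP, an acetyltransferase on 16p, and NSD2 on 4p at 3.14 from 3 fragments each. Both lists thus named NSD2, a methyltransferase of histone H3, at separate sites of the gene.

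A list of gene families and single genes near chromosome ends had 7 of 70 members in the H2O2 + BHBNa list and 3 in the H2O2 list. These were 10.0% and 4.29%, beside 8.44% and 2.94% of all genes at the ends. In the H2O2 + BHBNa list the members were the zinc finger genes ZNF141, ZNF26 and ZNF268, the olfactory receptor gene OR2L13, SIRT3, COLEC12 and NPRL3, with NPRL3 highest at a fold of 3.46. The SIRT3 peak is the same one counted above for mitochondrial quality control and for histone-modifying enzymes. With H2O2 alone they were ZNF718, TDRP and COLEC12, a scavenger receptor gene on 18p with 2 peaks and a highest fold of 3.64. Telomere maintenance genes had 0 of 4 members in the H2O2 + BHBNa list and 1 in the H2O2 list. It was SMCHD1 on 18p, a chromatin silencing protein, at a fold of 3.44 from 5 fragments. TERT and RTEL1 had none in either list. Antioxidant genes had 0 of 4, proximal tubule genes 0 of 6 and the control list of other tissues 0 of 3 in both lists, and so few genes allow no reading of a count of 0.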

How the data were processed

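H3K4bhb ChIP-seq of HK-2 cells gave 1 peak list per treatment, filed under both its IP and its control library with starts 1 bp apart. Tools named, per the submitters' processing notes, are MACS2 2.2.7.1, Bowtie2 2.4.2 and fastp 0.20.1, with build GRCh38. The sources used here give neither settings nor read totals. The authors deposited for each peak a score (10 times the −log10 p without its decimals, in 100% of rows), a ratio (the fold enrichment over background), and the −log10 of p and of q. Pileup and background were recovered from fold = (pileup + 1)/(background + 1) and from p as a Poisson upper tail, with a tolerance of 0.001 in −log10 p for every subtelomeric peak and a proportionally wider one for extreme values elsewhere. Recovery, placing and overlap were tested on simulated data. The simulated folds and p were made with these same formulas, so this checks the code and not whether the deposited peaks follow the formulas.

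Densities use chromosome lengths rounded to 0.1 Mb, with gaps not subtracted. The short-arm ends left out of the subtelomeric set count as interior. Their first 5 Mb held 0 peaks in both lists, which lowers the interior density and raises the ratio of end to interior. Genes, strands and promoters came from RefSeq tables of GRCh38.p14, 19126 protein-coding genes on chromosomes 1 to 22. Shares have exact binomial and densities exact Poisson intervals. Named peaks and genes are the 8 of highest fold, the 4 nearest an end and the 4 highest at gene ends per list, shared peaks, up to 6 genes with most peaks and up to 5 members per gene list. The members and lists were chosen with earlier results of these data known. Python 3.11.15, numpy 2.4.6, pandas 2.3.3, scipy 1.17.1 and matplotlib 3.10.9 were used.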

Additional observations from a re-analysis of the deposited data

Results flagged for a closer look

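The ends of chromosome X lie outside the chromosomes compared above and also carried peaks. In the H2O2 + BHBNa list 8 peaks lay within 5 Mb of the short-arm end and 11 within 5 Mb of the long-arm end, of 704 on chromosome X. In the H2O2 list the counts were 4 and 8 of 353. No control peak list was used here to set beside them, and these counts were not compared with the ends of the other chromosomes.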

How the results depend on the processing

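No paired analysis was possible because each treatment had 1 library, and no replicate could be left out. In each pair below the H2O2 + BHBNa list comes before the H2O2 list. Under all but 1 of the alternatives run, the density ratio stayed below 1. At a −log10 q of at least 5 it was 1.08 (0.283 to 2.93) from 4 subtelomeric peaks and 0 from 0, with shares of 7.27% and 0%, so the H2O2 + BHBNa ratio changed direction there with few peaks left. With ends of 2 Mb the shares were 1.51% and 1.19%, the H2O2 + BHBNa ratio 0.552, shared peaks 3 and 3, the H2O2 + BHBNa gene-end share 1.84% and its share passing q ≤ 0.05 was 20.2%. With ends of 10 Mb the shares were 11.8% and 9.02% and the ratios 0.849 and 0.631. With q ≤ 0.05 the H2O2 share was 2.64%, its ratio 0.373, its gene-end share 0% and its gene-body share 27.3%, from 11 peaks, with 0 and 0 shared peaks and 43 and 3 genes. With at least 3 fragments the H2O2 + BHBNa share was 4.11%, its ratio 0.589 and its genes 92. Short-arm ends alone held 2.43% and 1.60%, long-arm ends alone 2.70% and 1.79%. Shares for 1 arm or another width of end cover other amounts of sequence, so they do not compare directly with the main shares. The density ratios were 0.809 and 0.522 for short-arm ends and 0.692 and 0.450 for long-arm ends. Within 3 kb of gene ends lay 8.88% and 8.04%, and the share passing q ≤ 0.01 was 5.07% and 0%. A few further settings were added after seeing the data. Against 5 to 10 Mb from the same ends the H2O2 ratio was 0.601. With lists of equal length, which left peaks of 2 fragments in, the H2O2 + BHBNa share was 5.83% and its ratio 0.851. Gene starts in place of gene ends gave 1.63% in the H2O2 + BHBNa list. Depth limits every count, since most subtelomeric peaks rest on 2 to 4 fragments.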
